A study of Mus musculus with 8 samples.

Results

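The peaks described here are the H3K4me3 peaks that lie 1 to 3 kb from a transcription start site, on the flanks of promoters. They were chosen from the deposited peak table by its annotation, as every peak of the classes promoter 1-2 kb and promoter 2-3 kb, which gave 2916 of 35486 peaks (8.22%) at 2705 of 20871 genes. Each peak is a window of 400 bp. They were split by the sign of the distance to the start site into 995 upstream (negative distances) and 1921 downstream peaks, where downstream means on the transcribed side of the start site. Each was compared, where one existed, with the core peak of the same gene, which is a peak within 1 kb of the start site (17073 peaks), and a gene with several core peaks was represented by the one nearest to the flank peak.

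Tumor cells sorted from mouse lung as CD45-CD31-EpCAM+, 1000000 cells per mouse, were profiled for H3K4me3 by CUT&Tag, with 2 libraries from each of 2 genotypes. KL mice (Lkb1fl/fl) and KLG4m/m mice (Lkb1fl/fl and Gpx4m/m), which share the other alleles of the tumor model, both received intranasal Ad-Cre, which deletes Lkb1, and tamoxifen, and the cells were taken 10 weeks after Ad-Cre. In KLG4m/m mice the Gpx4 allele is flanked by rox sites and linked to a Cre-activated DreERT2 under a CAG promoter, so that tamoxifen deletes part of Gpx4 only in cells that have seen Cre; GPX4 is the enzyme that reduces lipid hydroperoxides and restrains ferroptosis. Replicates 1 and 2 are KL and replicates 3 and 4 are KLG4m/m. The study's figure legend gives 2 mice per group, whereas the protocol gives another total of mice than the number of libraries. It was thus not established that each library came from its own mouse, so that p-values measure the spread between libraries.

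H3K4me3 is the trimethylated form of lysine 4 on histone H3 and is laid down by the SET1 and MLL (KMT2) enzymes at active and poised start sites. It is densest on the nucleosomes that flank the start site, is recruited in part by unmethylated CpG islands, and often reaches farther into the transcribed side than upstream. Broad H3K4me3 domains that run into the gene body are a known feature of genes that define a cell's identity, so the flank of a promoter and its core can carry different information.

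Sequences around the start sites of 4 described genes are shown as examples of CG-rich and CG-poor starts near flank peaks. They are RefSeq sequences on GRCm38.p6, 300 bases each, from 250 bases upstream to 50 bases downstream of the annotated start, printed in the direction of transcription, with every CG dinucleotide in capitals. *Foxa1* and *Mnt* have core peaks within 1 kb of a start and windows with 26 and 32 CG, *Sftpb* has a core peak and 8 CG, and *Gpsm3* has an upstream flank peak, no core peak and 5 CG.
Foxa1 chr12:57546062-57546361 minus strand: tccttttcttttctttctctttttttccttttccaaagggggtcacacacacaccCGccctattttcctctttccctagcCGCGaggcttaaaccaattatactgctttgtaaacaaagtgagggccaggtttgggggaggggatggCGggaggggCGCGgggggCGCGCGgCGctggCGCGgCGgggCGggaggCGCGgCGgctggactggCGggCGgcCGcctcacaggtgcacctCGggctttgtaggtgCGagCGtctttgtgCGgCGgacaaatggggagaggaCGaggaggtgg
Mnt chr11:74830674-74830973 plus strand: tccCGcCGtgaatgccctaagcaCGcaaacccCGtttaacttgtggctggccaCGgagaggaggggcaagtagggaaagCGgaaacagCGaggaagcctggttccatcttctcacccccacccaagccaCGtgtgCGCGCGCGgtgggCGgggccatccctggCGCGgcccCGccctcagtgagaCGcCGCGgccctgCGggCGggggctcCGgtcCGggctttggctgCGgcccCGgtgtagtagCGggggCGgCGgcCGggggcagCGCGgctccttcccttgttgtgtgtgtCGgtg
Sftpb chr6:72304360-72304659 plus strand: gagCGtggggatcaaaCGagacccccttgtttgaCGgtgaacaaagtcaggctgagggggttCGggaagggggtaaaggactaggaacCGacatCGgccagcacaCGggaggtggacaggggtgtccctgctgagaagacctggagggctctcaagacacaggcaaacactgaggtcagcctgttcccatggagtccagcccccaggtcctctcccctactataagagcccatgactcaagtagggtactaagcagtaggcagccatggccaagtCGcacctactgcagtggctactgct
Gpsm3 chr17:34589556-34589855 plus strand: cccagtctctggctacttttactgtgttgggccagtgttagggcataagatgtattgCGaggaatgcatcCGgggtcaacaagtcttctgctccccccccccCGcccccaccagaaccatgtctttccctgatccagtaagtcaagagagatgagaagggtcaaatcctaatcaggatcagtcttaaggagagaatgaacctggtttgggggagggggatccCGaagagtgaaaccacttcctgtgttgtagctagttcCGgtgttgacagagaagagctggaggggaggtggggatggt
Over the 27025 genes of the RefSeq table, the same 300-base window held a median of 7 CG (CG reads the same on both strands), and 42.9% of windows held 10 or more. A comparison of CG content between members and other genes was void, since only 52.9% of the genes with a flank and a core peak and 42.9% of the genes with a flank peak alone had a single promoter in that table. The methods name an Ensembl release of the mouse genome for mapping, but the deposited table holds contig names that do not belong to GRCm38, so the build of its positions was not settled and the sequence under the flank peaks themselves is not shown.

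The libraries held 3244495 to 3463731 reads in peaks, and levels are given below as counts per 1000000 reads in peaks (CPM) after TMM scaling, whose factors lay between 0.9954 and 1.004. These values are relative to the total, which hides any change shared by all peaks, and in sorted bulk samples fewer cells of a type and less H3K4me3 per cell cannot be told apart. *Gpx4* had no flank peak. Its core peak, which lies over the start site and outside the deleted exons and so does not check the deletion, held 242 and 236 reads in KL and 304 and 301 in KLG4m/m (log2 fold change 0.40, edgeR adjusted p = 0.00854, DESeq2 adjusted p = 0.267).

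Flank peaks lay more often on the transcribed side of the start site. Of the 2916 peaks, 65.9% were downstream and 34.1% upstream, and on both sides they were more frequent close to the promoter, with 1117 downstream peaks at 1 to 2 kb against 804 at 2 to 3 kb, and 541 against 454 upstream. A core peak of the same gene existed for 1520 of them (468 upstream, 1052 downstream), and none existed for 1396 (527 upstream, 869 downstream). The flanks without a core peak stood apart from core peaks of other genes too. Of them, 71 of 1396 (5.09%) lay within 3500 bp of a core peak of any gene, and the median distance to one was 20.8 kb. Their distance to other flank peaks and to peaks of other classes was not measured. Non-coding transcripts were the annotated neighbour of 54.7% of the flanks without a core peak, against 16.6% of the flank peaks with a core peak and 18.7% of all core peaks.

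**Figure D1:**
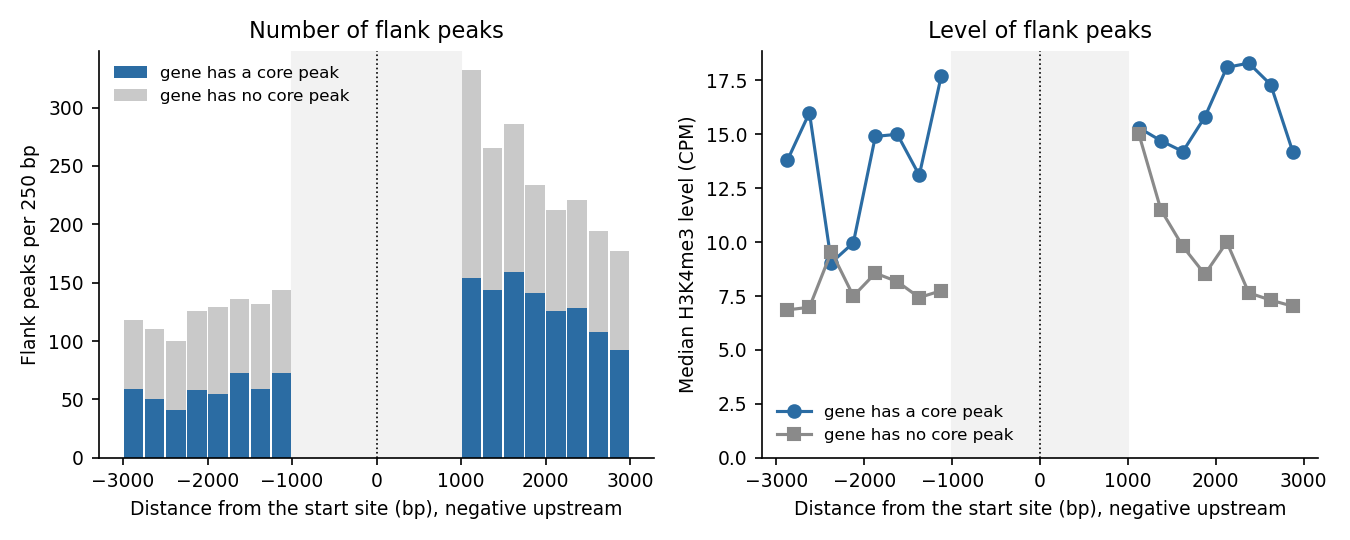
Left, number of flank peaks in windows of 250 bp by distance from the start site (negative upstream), split by whether the gene has a core peak; right, their median level in CPM over the 4 libraries. The grey band marks the core region within 1 kb. Downstream windows hold more peaks than upstream windows, and in the downstream peaks without a core peak the median level runs from 15 CPM in the window next to the core to 7.03 CPM in the farthest.

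The flank peaks were weaker than core peaks. Their median level over the 4 libraries was 11.9 CPM (10th to 90th percentile 4.32 to 43.2), against 41.2 CPM for core peaks and 6.77 CPM for peaks of all other classes. Downstream peaks had a median of 13 CPM and upstream peaks of 9.98 CPM, and peaks with a core peak of the gene had 15.2 CPM against 8.7 CPM for those without. In the 1520 pairs the flank had a median of 62.7% of the level of its core peak, with a 10th percentile of 21% and a 90th percentile of 149%, and in 359 pairs (23.6%) the flank was the higher of the pair. In 1090 pairs the core peak was within 3500 bp and the median was 67.7%. In the other 430 the nearest core peak of the gene lay farther off, and the median was 41.9%. At 72 genes with a core peak and flanks on both sides, the downstream flank was the higher in 37, with medians of 13 CPM upstream and 16.2 CPM downstream.

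Most genes (2514) had 1 flank peak, 176 had 2, and 15 had 3 or more. *Atxn1*, *Baz2b*, *Bcl11b*, *Foxp1* and *Rgs3* had 4 each. *Foxp1*, a forkhead factor of the lung epithelium and of lymphocytes, is an example: its 4 downstream flank peaks lay between 2055 and 2824 bp from their start sites, with log2 fold changes from -0.044 to 0.38, of which none passed the test.

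Of the 4 strongest flank peaks of named genes on each side, 1 passed the test between the genotypes. A peak of the unnamed locus LOC118568479 on an unplaced contig held 15150, 14528, 13034 and 13129 reads, 4098 CPM, far above every other member (the next held 210 CPM), and its log2 fold change was -0.12 (adjusted p = 0.174). The peak of *Kdm5b*, an H3K4 demethylase, at -2978 bp held 397 and 380 reads in KL and 365 and 377 in KLG4m/m, which was 205% of the core peak in KL and 252% in KLG4m/m (difference of the log2 ratio 0.29 ± 0.156, SE, adjusted p = 0.274). The peak of *Trim8*, a ubiquitin ligase, at -1458 bp held 331 and 331 reads against 385 and 369 (0.24, adjusted p = 0.0679). The peak of *Gpsm3*, a regulator of G protein signalling in blood cells, at -2186 bp was the one that passed. KL libraries had 411 and 420 reads, above the 350 and 308 of KLG4m/m, and the peak fell by 0.28 on the log2 scale (SE 0.0836, adjusted p = 0.0355, DESeq2 0.473). On the transcribed side, the peak at 1222 bp of *Mnt*, a repressor that pairs with MAX, held 463 and 429 reads against 482 and 492, equal to 109% and 125% of its core peak. *Tsc22d2* at 2240 bp (387, 391, 440 and 415 reads), *Ehbp1l1* at 1237 bp (395, 380, 418 and 384) and the pseudogenes *Pisd-ps2* at 2072 bp (530, 455, 561 and 562) and *Setd9-ps* at -1054 bp (417, 427, 424 and 381) did not pass the test, with adjusted p between 0.0522 and 0.95. Reads of pseudogenes can be shared with near-identical copies elsewhere, so these 2 values are uncertain.

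Between the genotypes, 128 flank peaks were higher and 95 lower in KLG4m/m (edgeR quasi-likelihood test, Benjamini-Hochberg adjusted p under 0.05 over all peaks). That was 4.39% and 3.26% of the members, whereas 3.1% of all peaks were higher and 5.52% were lower. The direction of the balance therefore differed from that of core peaks, where 494 were higher (2.89%) and 1440 lower (8.43%). The median log2 fold change was 0.047 over the flank peaks, 0.0024 over core peaks and 0.0077 over all peaks, and 55.8% of the flank peaks lay above 0. DESeq2 on the same counts called 4 flank peaks higher and 5 lower of 1989 tested, where 0.139% and 1.03% of all peaks were called. Without either KLG4m/m library edgeR called no flank peak at all (229 higher and 185 lower at an unadjusted p under 0.05 without replicate 3, 229 and 190 without replicate 4), where the library left in that group is assumed to vary like the KL libraries. The log2 fold changes of *Mrto4-ps2*, a pseudogene whose reads are uncertain, were then -1.99 and -2.08 against -2.03 with both. Those of *Arid1b* were -1.67 and -1.14 against -1.38. Without KL replicate 2 it called 58 higher and 37 lower.

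The balance also differed from that of core peaks within ranges of level. Among peaks of 20 to 40 CPM, 35 flank peaks were higher and 18 lower, whereas 97 core peaks were higher and 429 lower, and 59.3% of the flank peaks but 40.2% of the core peaks lay above 0. Among peaks of 40 to 80 CPM, 22 flank peaks were higher and 2 lower, against 155 and 528 core peaks, and 73.7% and 52.8% lay above 0. Above 80 CPM the classes were closer, with 80% and 73.1% above 0, and under 10 CPM about equal numbers of flank peaks lay on either side of 0. Peaks outside promoters resembled the flanks: of those with 20 to 40 CPM, 89 were higher and 33 lower. These are counts within the table, and no test was made of the difference between classes.

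**Figure D2:**
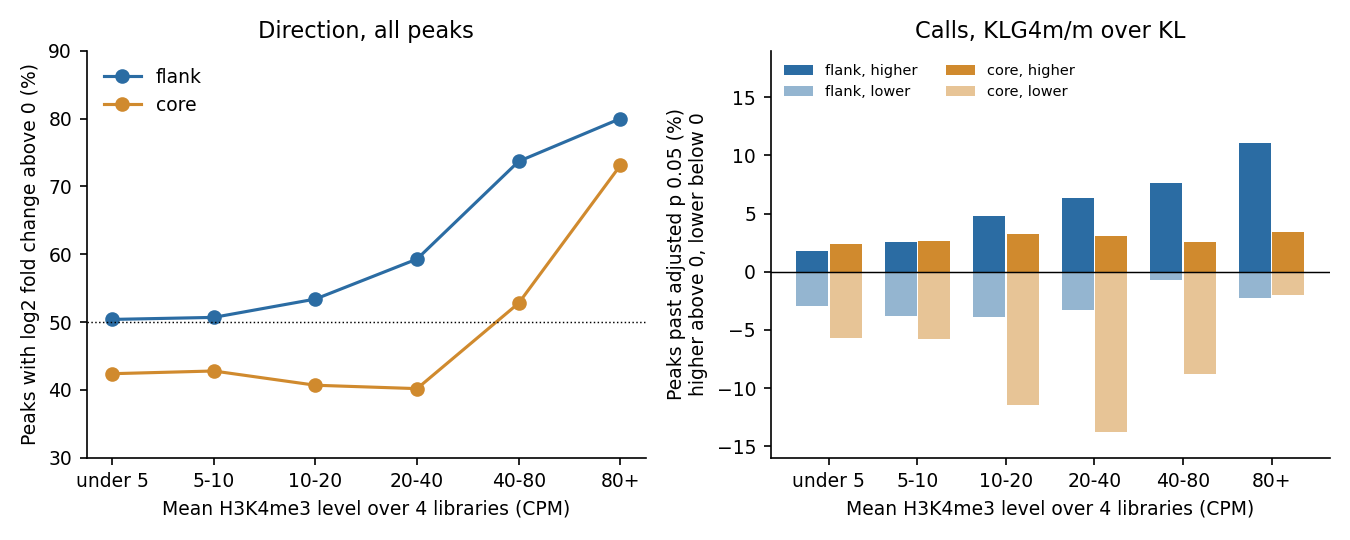
Left, percentage of flank and core peaks with a log2 fold change (KLG4m/m over KL) above 0 by mean level in CPM, with a dotted line at 50%; right, percentage of peaks past adjusted p 0.05, higher drawn above 0 and lower below. At 20 to 40 CPM 59.3% of flank and 40.2% of core peaks lie above 0, and the lower core calls (429) outnumber the higher (97), while among flank peaks the higher (35) outnumber the lower (18).

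The reads in all flank peaks made 5.764% and 5.706% of the KL libraries and 5.87% and 5.936% of the KLG4m/m libraries. Both KLG4m/m values lay above both KL values, by 0.168 percentage points on average (exact permutation test, two-sided, p = 0.333, the smallest p that 2 against 2 libraries allow). Without the LOC118568479 peak the shares were 5.326% and 5.287% against 5.492% and 5.531%. Downstream flanks held 3.742% and 3.698% against 3.865% and 3.887% (exact p = 0.333), whereas upstream flanks held 2.022% and 2.009% against 2.004% and 2.049%, which overlapped (exact p = 1). Core peaks held 77.57% and 77.65% in KL and 76.87% and 76.9% in KLG4m/m. Peaks of all other classes held 16.67% and 16.64% in KL and 17.26% and 17.16% in KLG4m/m, so the rise was not particular to flanks.

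By position, 96 downstream peaks were higher and 70 lower (5% and 3.64%), and 32 upstream peaks were higher and 25 lower (3.22% and 2.51%). Of the 1052 downstream peaks with a core peak (median 15.8 CPM), 70 were higher (6.65%) and 43 lower (4.09%). Of the 869 without (median 9.65 CPM), 26 were higher (2.99%) and 27 lower (3.11%). On both sides together, 67 were higher (4.04%) and 59 lower (3.56%) at 1 to 2 kb. At 2 to 3 kb, 61 were higher (4.85%) and 36 lower (2.86%). Over all peaks the shares were 3.1% and 5.52%. The borders of the choice were gradual, and the values just inside and outside them are given as a description. The 235 core peaks at 900 to 1000 bp had a median of 13.2 CPM and a median log2 fold change of -0.0077, and the 178 members at 1000 to 1100 bp had 14.3 CPM and 0.038. At the far border the 119 members at 2900 to 3000 bp had 9.62 CPM and 0.092, and the 104 peaks just beyond 3 kb had 9.41 CPM and 0.038.

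Of the 9 flank peaks that both tools called, 4 were higher in KLG4m/m; these 9 were chosen after their values were seen. The peak 2847 bp downstream of the start of the non-coding gene 2700054A10Rik held 73 and 66 reads in KL and 161 and 149 in KLG4m/m and rose by 1.21 ± 0.146 in log2 units (adjusted p = 5.96e-06 by edgeR, 2.52e-04 by DESeq2), together with its core peak, which rose by 1.19. The peak 2173 bp downstream of a start of *Ccm2*, an adaptor protein known from vascular malformations, held 170 and 175 reads against 275 and 272 and rose by 0.72 ± 0.103 (adjusted p = 6.65e-05), while the nearest core peak, 15.9 kb away, did not pass the test (0.13, adjusted p = 0.549). The peak of *Ighm*, the IgM heavy chain gene of B cells, at -1933 bp, with no core peak of the gene, held 148 and 166 reads against 264 and 215 and rose by 0.67 ± 0.114 (adjusted p = 4.97e-04, DESeq2 0.0343). The fourth was the unnamed locus Gm33838. In each of these peaks both KLG4m/m libraries were above both KL libraries, which was also so in 9770 of all 35486 peaks.

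By size of the change, the first was *Ccl7*, a chemokine that attracts monocytes. Its peak 2236 bp downstream of the start held 1 and 1 read in KL and 41 and 48 in KLG4m/m, and no core peak was listed. The reads summed over each group gave a ratio of 46.3, with an exact 95% counting interval of 12.4 to 388. The ratio is a description, since the peak met the minimum of 10 CPM through the KLG4m/m libraries alone. DESeq2 gave this peak no adjusted p. Of the other 7 members with the largest increases, 4 were of unnamed loci. *Sostdc1*, an antagonist of BMP and Wnt signalling, had 27 and 27 reads against 46 and 68 at 2866 bp (1.13 ± 0.25, adjusted p = 0.00503), with no core peak. *Ifitm1*, an interferon-induced membrane protein, had 23 and 24 reads against 49 and 45 at 1356 bp (1.05 ± 0.246, adjusted p = 0.00764). Its core peak rose by about the same amount, from 10.1 and 9.51 CPM to 19.1 and 20.1 CPM (1.00, adjusted p = 0.00312). This flank stood at 69.1% of the core in KL and 71.7% in KLG4m/m. Another *Ifitm1* flank, at 2958 bp, did not pass the test (0.60, adjusted p = 0.147). It stood at 73.5% of the core in KL and 55.6% in KLG4m/m (ratio adjusted p = 0.58). *Sp140l1* had 31 and 30 reads against 65 and 54 at -1236 bp (1.02 ± 0.219, adjusted p = 0.00419) and a core peak that rose by 0.95; it belongs to a family of near-identical genes, so its reads are uncertain. At *Ifitm1* and *Sp140l1* both the flank that passed the test and the core peak thus rose.

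The next 5 members that rose were picked after their values were seen, for their known roles in blood cells, and they do not describe blood cell genes as a group. Only members that rose were picked, whereas *Gpsm3* of blood cells, described above, passed the test and fell by 0.28 on the log2 scale. *Il21r*, a cytokine receptor of lymphocytes, had 61 and 54 reads in KL and 101 and 94 in KLG4m/m at 1196 bp (0.82, adjusted p = 0.00303). *Gpr183*, a chemotactic receptor of B cells, had 58 and 47 reads against 93 and 86 at 2395 bp (0.83, adjusted p = 0.00447). *Fyb1*, an adaptor of T cells, had 87 and 95 reads against 158 and 135 at 1254 bp (0.74, adjusted p = 0.00131), and *Il16*, a lymphocyte chemoattractant, had 92 and 98 reads against 157 and 134 at 2544 bp (0.67, adjusted p = 0.00312). In all 4 the groups did not overlap, and DESeq2 called none of them (adjusted p 0.0841 to 0.2). *Ncf4*, a subunit of the phagocyte NADPH oxidase, rose by 0.69 at its flank and by 0.39 at its core peak. In the macrophage marker list none of 4 flank peaks passed the test. *Mrc1* and *Chil3* were both at -0.91, whereas *Csf1r* and *Siglecf* were at 0.42 and 0.28. In the lymphocyte marker list the 4 flank peaks (*Cd2*, *Lck*, *Ms4a1*, *Ptprc*) had log2 fold changes from 0.11 to 0.26 and none passed the test, and 1 of the list's 8 core peaks was higher. The core peaks of 6 of 8 lymphocyte markers summed to 110 and 115 CPM in KL and 136 and 137 in KLG4m/m, and those of 5 of 8 macrophage markers to 135 and 132 against 155 and 151. *Ptprc*, which encodes CD45, had 123, 137, 155 and 136 reads at its flank peak. The CUT&Tag methods and the study's figure legend give the tumor cells of these libraries as CD45-. A general cell sorting section writes the tumor cell gate as CD45.2+, and this difference was not resolved. The part of other cells in these increases was not tested.

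The other 5 flank peaks that both tools called were lower in KLG4m/m. The peak of *Sftpb*, the gene of surfactant protein B made by alveolar type 2 cells, lay 1926 bp downstream (chr6:72283520-72283920 as deposited) and held 61 and 51 reads in KL and 19 and 20 in KLG4m/m, with no overlap. It fell by 1.46 ± 0.252 in log2 units (adjusted p = 5.1e-04 by edgeR, 0.0464 by DESeq2). The peak of *Nr2f2*, an orphan nuclear receptor, at -1157 bp held 115 and 128 reads against 58 and 51 and fell by 1.10 ± 0.164 (adjusted p = 1.12e-04, DESeq2 0.00997), with a core peak that fell by 0.74 (adjusted p = 0.0204). The peak 1294 bp downstream of the start of *Arid1b*, a subunit of the BAF chromatin remodelling complex, held 61 and 104 reads against 37 and 24 and fell by 1.38 ± 0.247 (adjusted p = 7.89e-04); the KL libraries differed by more than those of KLG4m/m, and the gene had no core peak. *Galr3*, a galanin receptor, had 81 and 61 reads against 29 and 23 at 1106 bp (-1.39 ± 0.23, adjusted p = 3.24e-04). The pseudogene *Mrto4-ps2* had 42 and 44 against 10 and 10 at -1583 bp (-2.03 ± 0.312, adjusted p = 1.34e-04), and its reads are uncertain like those of the other pseudogenes.

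Among the other large decreases were flanks of transcription factor genes. *Nfix*, of the nuclear factor I family, had flank peaks at different start sites: 38 and 47 reads against 22 and 14 at -2766 bp (-1.18, adjusted p = 0.00887) and 52 and 34 against 18 and 21 at 1064 bp downstream (-1.08, adjusted p = 0.0172). The peak of *Zfhx3*, a homeobox and zinc finger factor, at -2536 bp had 49 and 31 reads against 15 and 19 (-1.17, adjusted p = 0.015). Other *Zfhx3* flanks, at -1126 and 2970 bp, had log2 fold changes of 0.24 and -0.32 and did not pass the test. The upstream peak of *Osbpl3*, an oxysterol-binding protein relative, had 54 and 44 reads against 9 and 21 at -1423 bp (-1.64, adjusted p = 0.00115). DESeq2 called none of the flanks in this paragraph that passed by edgeR (adjusted p 0.0593 to 0.361).

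The alveolar type 2 list had 4 flank peaks, all downstream and all below 0, with a median log2 fold change of -0.99 against 0.0077 over all peaks. Besides *Sftpb*, the flank of *Sftpd*, surfactant protein D, at 1342 bp held 51 and 51 reads in KL and 17 and 32 in KLG4m/m and fell by 1.00 ± 0.265 (adjusted p = 0.0183, DESeq2 0.367), and the gene had no core peak. The flank of *Sftpa1*, surfactant protein A, held 30 and 30 reads against 19 and 10 (-0.99, adjusted p = 0.0556) and that of *Lyz2*, a lysozyme of alveolar type 2 and myeloid cells, 61 and 62 against 48 and 51 (-0.26, adjusted p = 0.444). At these last genes the core peak passed the test: that of *Sftpa1* from 15.5 and 18.1 CPM to 5.8 and 7.43 CPM (-1.35, adjusted p = 8.18e-04) and that of *Lyz2* from 25.6 and 28.2 CPM to 14.5 and 19.5 CPM (-0.67, adjusted p = 0.0197). The core peak of *Sftpb* was 25.9 and 23.9 CPM in KL and 18.3 and 20.7 CPM in KLG4m/m (-0.35, adjusted p = 0.197). Over 6 of the 9 markers the core peaks summed to 206 and 222 CPM in KL and 164 and 172 in KLG4m/m, and *Sftpc*, the defining marker, had no core peak. Epithelial markers had core peaks at 8 of 8 genes, with sums of 252 and 240 CPM against 206 and 219, and 5 flank peaks (*Cdh1*, *Elf3*, *Epcam* and 2 of *Krt18*) of which none passed the test. The core peak of *Epcam*, the marker that the sort selected for, fell from 40.9 and 42.9 CPM to 22.3 and 23.5 CPM (-0.87, adjusted p = 3.74e-04). The part of the number of alveolar type 2 cells in these values was not tested.

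Lung and endoderm lineage factors were the list with the most flank peaks, 14 peaks at 11 of 30 genes, of which 2 were higher and 1 lower (3.1% and 5.52% over all peaks), with a median of 0.061 against 0.0077 over all peaks, and DESeq2 called 0 higher and 0 lower. *Foxa2*, a pioneer factor of lung epithelium, had 94 and 90 reads in KL and 51 and 51 in KLG4m/m at -1583 bp (chr2:147890472-147890872 as deposited) and fell by 0.79 ± 0.176 (adjusted p = 0.00539, DESeq2 0.221). Its core peak was 24.2 and 20.7 CPM against 13.9 and 16.1 CPM (-0.58, adjusted p = 0.0507). *Foxa1*, its paralog, showed the call at the core peak: its flank at 2598 bp held 108 and 83 reads against 81 and 70 (-0.28, adjusted p = 0.309), whereas its nearest core peak fell from 21.3 and 22.8 CPM to 14.2 and 13.6 CPM (-0.66, adjusted p = 0.0268) and its other core peak, over the start site, had 24.5 and 20.2 CPM against 25.5 and 24.2 CPM (0.16, adjusted p = 0.606). The flank to core ratio of neither gene passed the test (*Foxa2* adjusted p = 0.725, *Foxa1* 0.441). *Runx1*, a factor of blood cells and of injured epithelium, had 45 and 55 reads against 81 and 87 at 2161 bp and rose by 0.80 ± 0.186 (adjusted p = 0.00698), with a nearest core peak that rose by 0.38, whereas another core peak of the gene, over a different start site, fell from 55.5 and 49.3 CPM to 32.2 and 34.4 CPM (-0.66, adjusted p = 0.00199). *Id2*, an inhibitor of basic helix-loop-helix factors, had 97 and 91 reads against 125 and 126 at 2852 bp and rose by 0.47 ± 0.144 (adjusted p = 0.038), with a core peak that rose by 0.33. *Nkx2-1*, *Stk11*, *Dgat2* and *Gpd1l* had no flank peak.

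**Figure D3:**
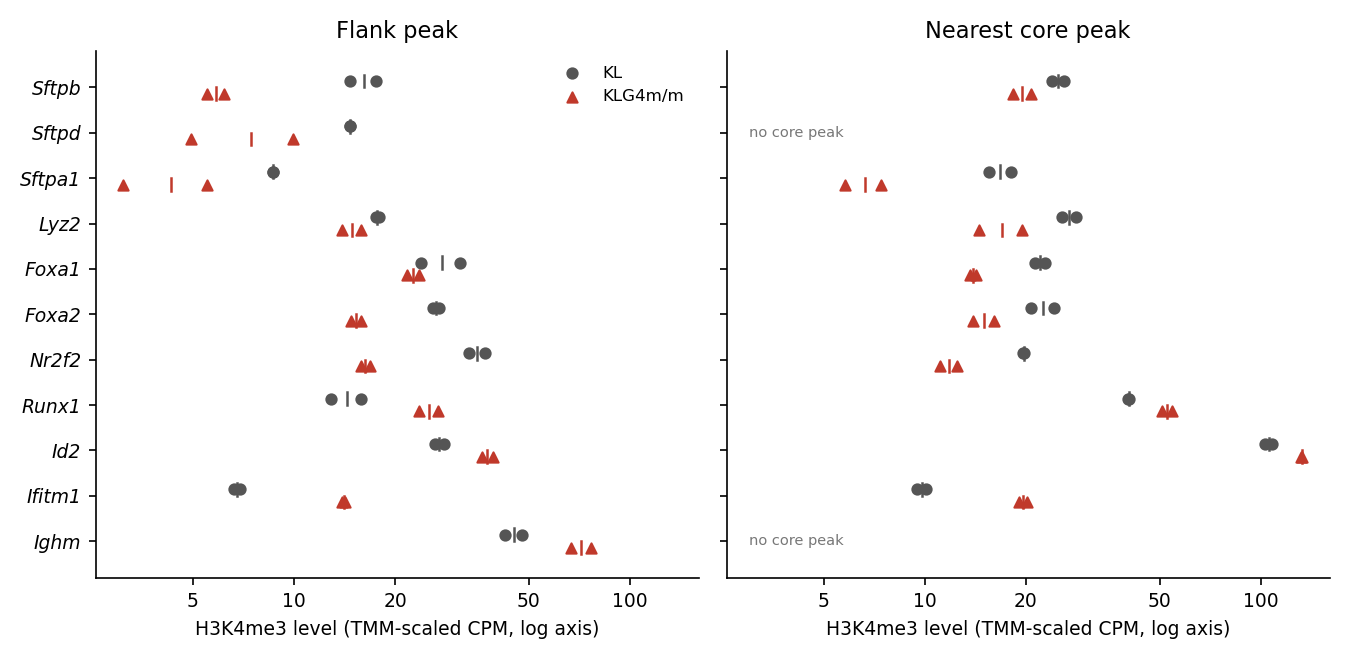
Level of the flank peak (left) and of the nearest core peak (right) in each library of 11 genes, in TMM-scaled CPM on a log axis; grey circles are the 2 KL libraries, red triangles the 2 KLG4m/m libraries and vertical ticks the group means. The KLG4m/m flanks of *Sftpb* (5.51 and 6.19 CPM) lie far below those of KL (17.5 and 14.7 CPM), while its core peak shows a smaller gap, and *Ifitm1* shows the same shift in both.

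Whether the flank changed differently from its core was tested directly as the interaction of position and genotype over 10107 pairs of every class outside the core. Of the 1520 flank pairs, 50 had a higher flank to core ratio in KLG4m/m (3.29%) and 29 a lower one (1.91%), where 3.85% and 1.94% of all pairs were called. The flank shares were thus near the background. A test with limma on the log2 ratio called 2 and 3 flank pairs. Of the 50 with a higher ratio, the core peak was called lower in 27, the flank called higher in 14 and neither in 9. Of the 29 with a lower ratio, the flank was called lower in 16, the core called higher in 7 and neither in 6. The median log2 ratio per library was -0.648 and -0.694 in KL and -0.632 and -0.607 in KLG4m/m, a difference of 0.0513 (exact permutation test, two-sided, p = 0.333). For the pairs within 3500 bp it was -0.54 and -0.594 against -0.555 and -0.531, which overlapped (exact p = 0.667).

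**Figure D4:**
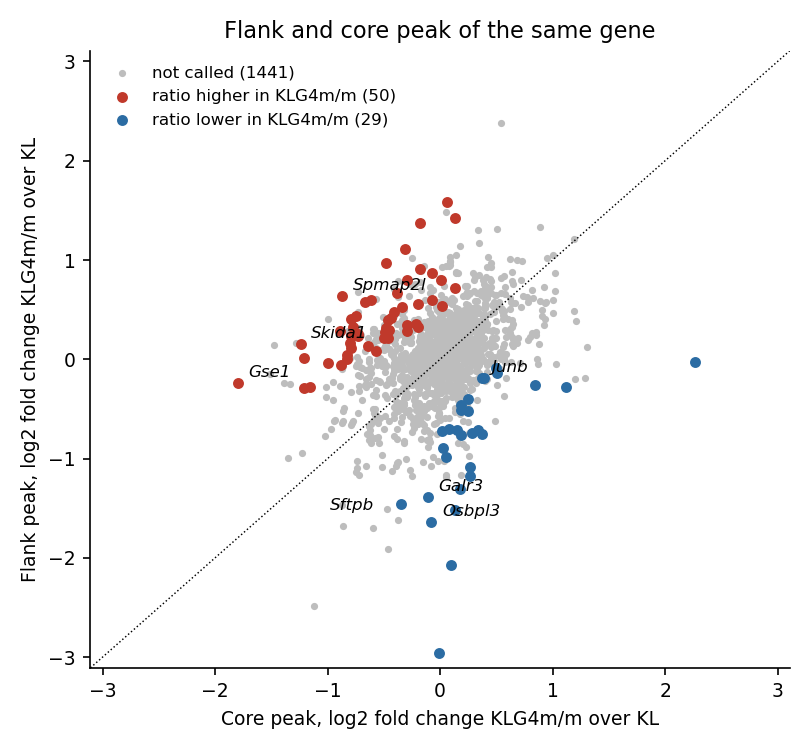
Log2 fold change of each flank peak (vertical) against that of the core peak of the same gene (horizontal) for 1520 pairs; red marks the 50 pairs with a higher and blue the 29 with a lower flank to core ratio in KLG4m/m by edgeR, and the dotted line is equal change. In 27 of the red pairs the core peak was called lower, as at *Skida1*, and in 16 of the blue pairs the flank was called lower, as at *Sftpb* and *Galr3*.

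In 4 of the 5 largest increases of the ratio with at least 10 CPM at the flank in the higher group, the core peak fell. At *Skida1* the flank at -1663 bp held 63 and 56 reads in KL and 66 and 61 in KLG4m/m, while the core peak 2.88 kb away fell from 36.2 and 35.1 CPM to 17.4 and 12.7 CPM (-1.24, adjusted p = 4.88e-05), so that the flank went from 48% to 126% of the core (log2 ratio difference 1.39 ± 0.269, adjusted p = 2.94e-04). At *Lrp4*, a receptor of Wnt and agrin signalling, the flank at 1805 bp had 44 and 36 reads against 66 and 51. Its nearest core peak was weak, with 9.21 and 7.78 CPM against 6.38 and 4.64 CPM. Neither passed the test alone, but the ratio did (1.22 ± 0.386, adjusted p = 0.0389). Another, stronger core peak of the gene had 34.8 and 43.8 CPM against 43.2 and 41.2 CPM (0.10, adjusted p = 0.681). The remaining 3 of the rule were *Gse1*, *Spmap2l* and *Cpne5*, with ratio differences of 1.56, 1.51 and 1.24. Their nearest core peaks lay 258, 22.9 and 73.7 kb away, at another start site, and fell by 1.80, 0.87 and 0.67. Their flanks had log2 fold changes of -0.24, 0.64 and 0.58, and none of these flanks passed the test.

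At *Sftpb*, *Galr3*, *Nfix* and *Osbpl3* the flanks described above fell and had a lower ratio. At *Sftpb* the flank went from 64.7% to 30% of a core peak 2.19 kb away (log2 ratio difference -1.10 ± 0.329, adjusted p = 0.0266). At *Galr3* the flank at 1106 bp went from 79.8% to 32.7% of a core peak 2.1 kb away (-1.28 ± 0.297, adjusted p = 0.00303). Another *Galr3* flank, at -2570 bp, stood at 60.1% of the same core peak in KL and 61.3% in KLG4m/m (adjusted p = 0.978). Both flanks of *Nfix* went from 137% and 139% to 50% and 54.7% of a core peak of 8.92 CPM in KL and 10.7 CPM in KLG4m/m (-1.45 and -1.35, adjusted p = 0.0145 and 0.0229) that lies 9.25 and 3.83 kb away, at another start site. The flanks share that core peak and are not independent. Other, stronger core peaks of the gene had 51.1 and 26.6 CPM in KL against 42.7 and 25.1 CPM in KLG4m/m, and neither passed the test. At *Osbpl3* the ratio difference was -1.57 (adjusted p = 4.38e-04) against a core peak 71.4 kb away. In the list of immediate early genes, none of 9 flank peaks at 8 of 28 genes passed the test by itself, but *Junb*, a subunit of the AP-1 factor, had a lower ratio (-0.56, adjusted p = 0.0223), with 246 and 267 reads against 242 and 190 at a flank 1868 bp downstream and a core peak that rose by 0.37 (adjusted p = 0.0359).

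The other lists had few flank peaks, and none of their members passed the test. The genes of H3K4 methylation had 3 of 17 genes with a flank (*Kdm5b*, *Kmt2d*, *Setd1b*; log2 fold changes from -0.0087 to 0.12), the interferon and antigen presentation genes 4 of 19 (*B2m*, *Cd274*, *Irf7*, *Tap2*; 0.026 to 0.33), the YAP and TGF-beta targets 5 of 23 with 7 peaks (-0.28 to 0.31) and the developmental homeobox and T-box genes 6 of 61 (-0.012 to 0.46). In the lipid and ferroptosis lists, *Pla2g7* was the only 1 of the study's 10 triacylglycerol genes with a flank peak (47 and 31 reads in KL, 64 and 55 in KLG4m/m at 1444 bp; 0.66, adjusted p = 0.0566), and that list was chosen by the study on these samples. *Lpin1* and *Lpin2* of the other triacylglycerol genes, *Gclc*, *Keap1* and *Scd1* of ferroptosis defence, and *Ncoa4* and *Sat1* of ferroptosis promotion had values from -0.33 to 0.34. Of the macrophage markers *Chil3*, *Csf1r*, *Mrc1* and *Siglecf* had flank peaks from -0.91 to 0.42, of the endothelial markers *Pecam1* had one at -0.23, and no fibroblast marker had one. Endothelial core peaks summed to 88.9 and 103 CPM in KL and 72.8 and 84.5 in KLG4m/m, and those of 3 of 6 fibroblast markers to 64.4 and 71.7 against 69.3 and 73.1.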

How the data were processed

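H3K4me3 CUT&Tag was analysed in 2 KL and 2 KLG4m/m libraries; the H3K27ac libraries are not analysed here. Per the methods and the submitters' processing notes, the authors trimmed reads (Trim Galore 0.6.10), mapped them with BWA 0.7.15, removed mitochondrial, low-quality and duplicate reads (Picard 2.17.3), called peaks with MACS2 2.2.7.1 and assigned them with HOMER 4.11.1. How peaks were merged to windows of 400 bp and counted, and the build of the positions, are not settled by the sources used here (an Ensembl release is named for mapping, with contig names in the table that GRCm38 lacks). The deposited table holds whole read counts per peak and library, without normalization, and CPM, deposited per 1000000 reads of the table. It also holds the signed distance to the start site and the authors' own comparison (fold changes, p-values and adjusted p-values), which was not used. The distance was recomputed for all 35486 peaks within 1 bp.

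The counts were tested with edgeR 4.0.16 (quasi-likelihood, TMM, no covariate, R 4.3.3) over all peaks, common dispersion 0.00133, with Benjamini-Hochberg adjustment and a threshold of 0.05. The ratio of a flank to its core peak was tested as an interaction with library as block, over 10107 pairs. Values with an error are log2 fold changes ± SE unless named otherwise. Alternatives were DESeq2 1.42.0, limma 3.58.1 with other scalings, other size factors, a filter of 10 CPM, other core peaks, pseudocounts of 0.25 and 4 in place of 1, and leaving out each library. On simulated data edgeR recovered 80.5% of 200 flank peaks changed 2-fold, with 1.23% false among calls, and 61.5% of 122 changed ratios. All were drawn from peaks of at least 10 CPM, so weaker flanks were not tested this way. Every simulated peak had the same dispersion of 0.0013, so the false share does not describe the calls in the measured data. The counting interval covers counting error only.

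The named members were, by rule, the 4 strongest flanks of named genes on each side, the 8 largest increases and 8 largest decreases past the threshold with groups apart and a higher group of at least 10 CPM, the 5 largest ratio changes each way with the same minimum for the flank, up to 6 called members of each list, and *Gpx4*, *Dgat2*, *Gpd1l*, *Nkx2-1*, *Foxa1*, *Foxa2* and *Stk11*; unnamed loci were not described beyond 2. The members and the lists were chosen with earlier results of these data known. Items withheld from this text are not reported here.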

Additional observations from a re-analysis of the deposited data

How the results depend on the processing

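Of the flank peak counts (128 higher, 95 lower), RLE size factors, total-read scaling, limma on log2(CPM + 1), median centring, an added 1.5-fold change and a choice by distance alone stayed within 1.5 times. DESeq2 gave 4 and 5, all shared with the main calls, quantile normalized limma 59 and 34, and a filter of 10 CPM gave 123 and 61. The share of higher among the calls was 57.4%, and 66.8% under that filter, 66.2% with median centring, 63.4% with quantile normalization and 44.4% by DESeq2. Without 1 library the higher calls ranged from 0 to 84 and the lower from 0 to 69; both were 0 without KLG4m/m replicate 3 or replicate 4, and 58 and 37 without KL replicate 2. The ratio counts (50 higher, 29 lower) were 2 and 3 with limma on the log2 ratio and ranged from 10 to 37 and from 6 to 18 without 1 library. The difference of the median log2 ratio (0.0513) stayed between 0.0286 and 0.0448 under 5 alternatives and between 0.0283 and 0.0742 without 1 library, and that of the flank share (0.168 points) between 0.135 and 0.201. Of 35 named peaks, DESeq2 kept 18 on their side of the threshold, but edgeR had not called most of these either. Another 17 lost the call. Of the named peaks that edgeR called, only those of 2700054A10Rik, *Mrto4-ps2*, *Sftpb*, *Galr3* and *Arid1b* stayed called by DESeq2. The sign turned for *Setd9-ps* (-0.046 to 0.02 without 1 library) and *Kdm5b* (-0.077 to 0.058 without 1 library), both near 0 in the full set. The cause of these shifts was not tested. No paired analysis was possible because the groups share no replicate number. With 2 libraries a group, detection at flanks under 10 CPM was not simulated.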
